A study of Danio rerio with 9 samples.

Results

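Genes that make cholesterol, fatty acids and glycerolipids, that sense sterol, and that build or unload lipoprotein particles were examined in RNA sequencing of adult zebrafish ventricles. They were chosen by gene name (sterol pathway enzymes by full name, and families such as hmgc, ldlr, elovl, agpat, apoa, apob, apoc, apoe, abca1 and abcg1 by the start of the name) and by a minimum of 10 counts in at least 3 of the 9 libraries. Of 30628 genes in the table, 86 carried such a name and 65 of those reached the minimum. All 65 were among the 21216 genes tested. The choice by name also took in genes that are no lipid genes, such as apobec2a and apobec2b of the cytidine deaminase family, and these are described separately. One gene, apoba, reached the minimum only through the Tg(cmlc2:tfeb) libraries, so it had to differ, and it is given by its counts.

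Cells build cholesterol from acetyl-CoA through mevalonate and squalene, and HMG-CoA reductase is the regulated early step that statins block. When sterol in the endoplasmic reticulum runs low, SCAP carries the SREBP transcription factors to the Golgi for activation, INSIG proteins hold them back when sterol is plentiful, and active SREBPs raise the genes of sterol synthesis and of the LDL receptor. Liver X receptors respond to oxidized sterols and raise the exporters ABCA1 and ABCG1, which hand cholesterol to apolipoproteins. Heart muscle lives largely on fatty acids that lipoprotein lipase frees from circulating particles. TFEB is a transcription factor of lysosome and autophagy genes that the mTOR kinase keeps in the cytoplasm.

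The first group, Tg(cmlc2:tfeb), carries a transgene that expresses tfeb from the cardiomyocyte promoter cmlc2. The second has the genotype mtor xu015/+, that is 1 mutated and 1 intact allele of the mTOR kinase gene. The third is WT. All fish were 6 months old according to the methods, although the WT columns carry a tag of 9 months, and each group has 3 libraries of 5 pooled ventricles. The labels do not say of which line the WT fish were siblings, and a single WT group serves both lines, so the comparisons share libraries. All cell types of the ventricle enter these libraries, and fewer cells of a type and less RNA per cell cannot be told apart.

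Values are normalized counts, that is estimated counts scaled to a common library size, and totals per library were 35440229 to 45273885. Gene lengths were not used, so levels are compared between libraries and not between genes. A gene was called changed at an adjusted p under 0.05 (edgeR quasi-likelihood test, Benjamini-Hochberg over all tested genes) with at least a 1.5-fold change. The tfeb count was 22103, 26435 and 8783 in Tg(cmlc2:tfeb), against 2169, 1654 and 1707 in WT. The mtor count was 6165, 7294 and 5389 in the libraries labelled mtor xu015/+, against 6601, 3970.3 and 2522 in WT. The transcript therefore does not check that label, and these libraries are called mtor-labelled in what follows. In Tg(cmlc2:tfeb) the mtor count was 1900, 1904 and 1871. It was called lower there than in WT (log2 fold change -1.21, edgeR adjusted p = 0.0153) and than in the mtor-labelled libraries (-1.73, edgeR adjusted p = 0.00275). Of 13 tested cardiomyocyte marker genes, 0 were called higher and 3 lower in Tg(cmlc2:tfeb) against WT, beside 7.41% and 7.49% of all tested genes. The sum of these markers was 3827202 to 4401674 in Tg(cmlc2:tfeb) and 5400948 to 5802925 in WT. Much of this gap was myh7l, with 1380705, 1128324 and 746946 in Tg(cmlc2:tfeb), against 1963476, 1799957 and 1757624 in WT. Also called lower were cmlc1 and nppa, with log2 fold changes of -0.74 and -0.59. Only ryr2b and ttn.1 had positive log2 fold changes, of 0.28 and 0.03, and all other tested markers of this list had negative ones. All 9 cycling cell markers were called higher in Tg(cmlc2:tfeb).

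In Tg(cmlc2:tfeb) against WT, 12 of the 65 genes were called. The 7 that rose were apoba, abcg1, mvk, scdb, aclyb, abca1b and gpam, and the 5 that fell were scd, pmvk, apobec2b, elovl2 and elovl1b. The share called higher was 10.8% and the share called lower was 7.69%, beside 7.41% and 7.49% of all tested genes, so the count is close to that of the transcriptome as a whole. Without apoba, whose call the minimum fixed, 11 of 64 genes were called, 6 higher (9.38%) and 5 lower (7.81%). The libraries of both groups did not overlap for 24 of the 65 genes (36.9%, or 23 of 64 without apoba), beside 42% of all tested genes. The median log2 fold change was 0.05 over the 65 genes, 0.03 without apoba, and -0.00063 over all tested genes, and its median size was 0.24 beside 0.28. In no synthesis pathway were most genes called. The changes fell on single steps, and of the pairs aclya and aclyb, abca1a and abca1b, elovl1a and elovl1b, and apobec2a and apobec2b, 1 copy each was called. For the elovl1 and apobec2 pairs the ratio of the copies overlapped between the groups. For the acly and abca1 pairs it lay apart, but an exact permutation test of 3 against 3 libraries cannot pass 0.05. A difference between the copies was thus not shown by a test in any of these pairs.

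**Figure D1:**
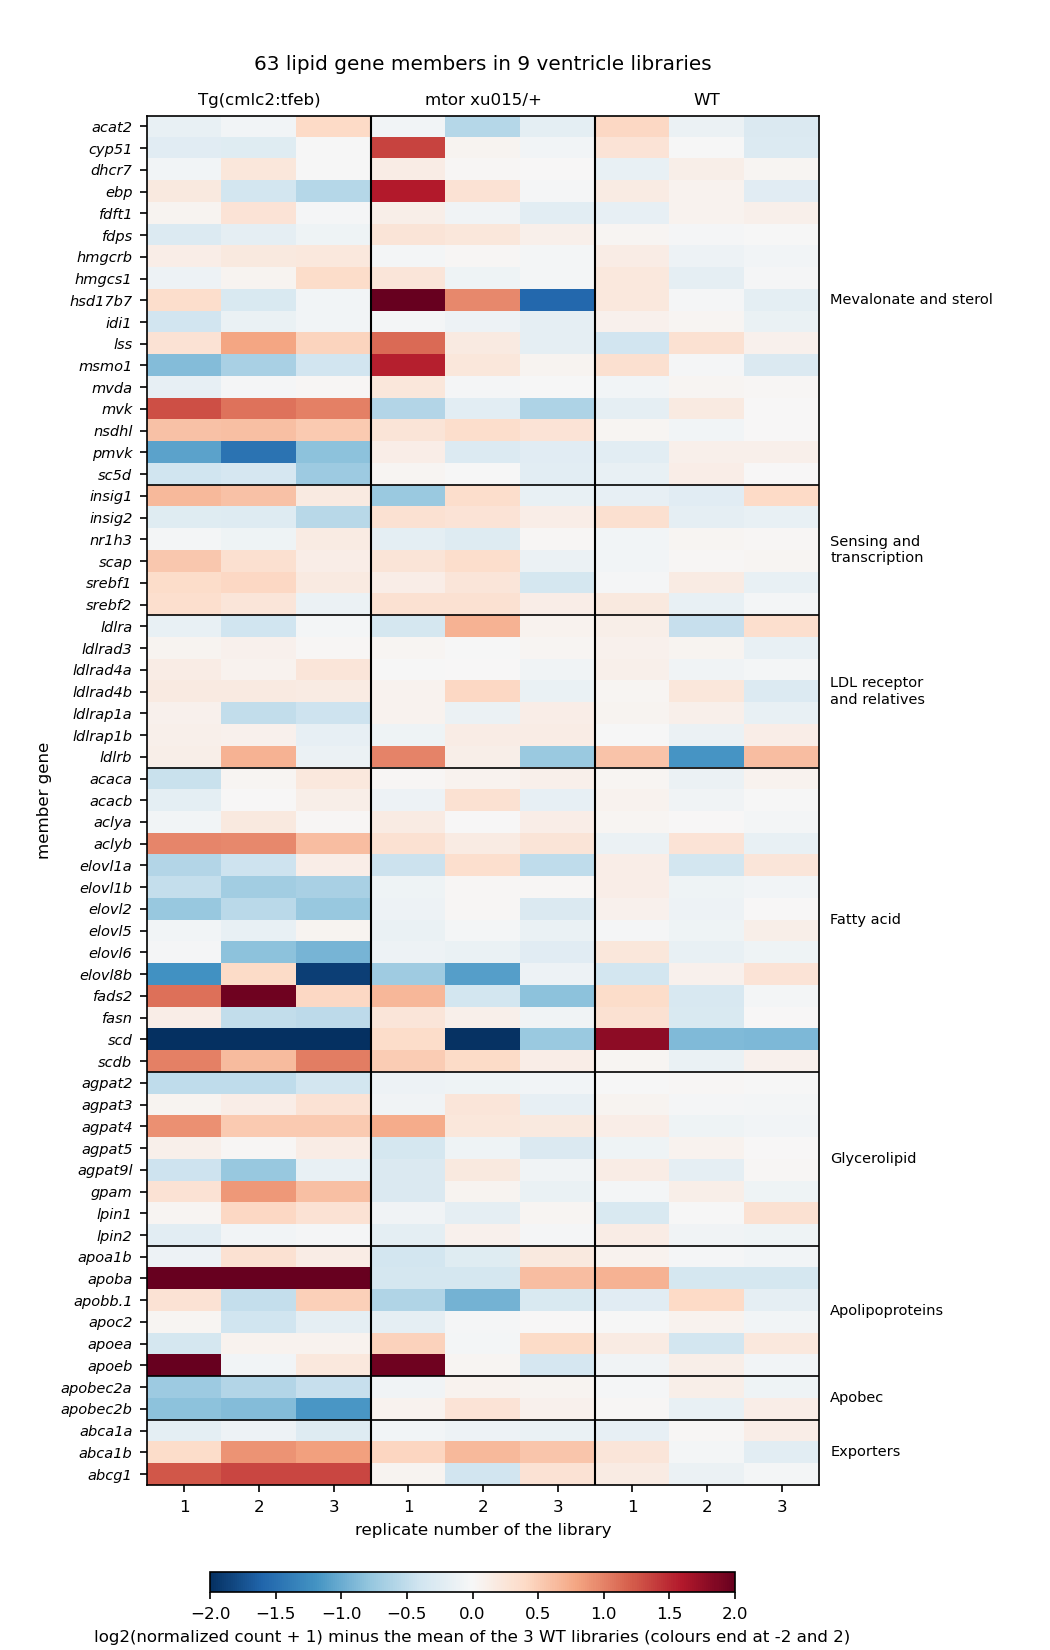
Each row is a gene (63 of the 65), grouped by role, and each column 1 of the 9 libraries (Tg(cmlc2:tfeb), mtor-labelled, then WT); colour is log2 of the normalized count plus 1, minus the WT mean of that gene, with the colour scale ending at -2 and 2. Most rows are pale in all libraries, scd and apobec2b are low in all 3 Tg(cmlc2:tfeb) libraries, and several sterol genes stand out in mtor-labelled replicate 1.

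Most rows of the map of 63 genes by library are pale. Small changes can still separate groups, since Tg(cmlc2:tfeb) and WT did not overlap for 36.9% of the 65 genes, beside 42% of all tested genes. Mevalonate and sterol synthesis had 18 genes, with a median log2 fold change of 0.03 in Tg(cmlc2:tfeb) against WT. Of these, 1 rose and 1 fell (5.56% each), beside 7.41% and 7.49% of all tested genes. Both changed genes encode kinases that act one after the other on mevalonate. The first, mevalonate kinase mvk (chromosome 5, 19494198 to 19509695, GRCz11), had normalized counts of 82.9, 72.3 and 68.4 in Tg(cmlc2:tfeb), against 29.3, 37.9 and 33.8 in WT. All 3 Tg(cmlc2:tfeb) libraries lay above all others, and mvk rose by a log2 fold change of 1.15 ± 0.21 (SE, edgeR adjusted p = 0.00556). The second, phosphomevalonate kinase pmvk (chromosome 16, 6937186 to 6944927), had 39.3, 29.6 and 47.1 in Tg(cmlc2:tfeb), against 72.2, 90.7 and 90.5 in WT. Its groups did not overlap either, and it fell, with a log2 fold change of -1.13 ± 0.22 (edgeR adjusted p = 0.00708). These neighbouring steps thus moved in opposite directions.

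The steps around them gave small differences. HMG-CoA synthase hmgcs1 averaged 1398 ± 237 normalized counts in Tg(cmlc2:tfeb) and 1300.2 ± 184 in WT (SD, n = 3 each), and the reductase hmgcrb 1170.4 ± 35.9 and 1034 ± 96.9. Their log2 fold changes were 0.10 and 0.18, with edgeR adjusted p of 0.655 and 0.152. The other reductase copy, hmgcra, did not reach the minimum and had 0, 4.35 and 1.12 normalized counts in Tg(cmlc2:tfeb), against 4.19, 0 and 0 in WT. Both squalene epoxidase genes, sqlea and sqleb, were also under the minimum, whereas fdft1, which encodes squalene synthase, had a log2 fold change of 0.11 (edgeR adjusted p = 0.568).

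Past squalene, nsdhl, a sterol dehydrogenase that helps to strip methyl groups from lanosterol, came nearest to a call. It had 162, 164 and 155 normalized counts in Tg(cmlc2:tfeb), against 109.9, 103 and 108 in WT. Replicates were tight and the groups lay well apart, with a log2 fold change of 0.58 ± 0.11 (edgeR adjusted p = 0.00632), which is 1.49-fold and just under the threshold. The sterol desaturase sc5d had a log2 fold change of -0.48 (edgeR adjusted p = 0.0481), also under 1.5-fold. The reductase gene dhcr7, whose enzyme acts late in cholesterol synthesis, had a log2 fold change of 0.06, which did not pass (edgeR adjusted p = 0.738).

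Of the 6 genes of sterol sensing and lipid transcription none was called, beside 7.41% of all tested genes called higher and 7.49% lower. Tg(cmlc2:tfeb) and WT did not overlap for 3 of the 6 (50%), beside 42% of all tested genes. These were srebf1 and scap, higher in Tg(cmlc2:tfeb), and insig2, lower there (log2 fold change -0.37, edgeR adjusted p = 0.145). The log2 fold changes of srebf1 and srebf2, which encode the SREBPs, were 0.32 and 0.16 (edgeR adjusted p = 0.162 and 0.418), and that of the SREBP escort scap was 0.35 (edgeR adjusted p = 0.107). The retention factor insig1, itself raised by SREBPs in mammals, had 370.2, 356 and 268 normalized counts in Tg(cmlc2:tfeb), against 210.4, 201 and 312 in WT. WT replicate 3 lay between the transgenic libraries, and the difference did not pass (log2 fold change 0.46 ± 0.27, edgeR adjusted p = 0.253). The liver X receptor gene nr1h3 averaged 965 ± 89.8 in Tg(cmlc2:tfeb) and 952 ± 33.4 in WT (SD, n = 3 each, edgeR adjusted p = 0.911).

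Of the 3 sterol exporter genes, 2 rose, beside 7.41% of all tested genes called higher. The ABC transporter abcg1, which passes cholesterol to lipoprotein particles (chromosome 15, 5028608 to 5074983), had 105, 112 and 112 normalized counts in Tg(cmlc2:tfeb), against 49.2, 40.2 and 42.5 in WT. The transgenic libraries agreed closely with each other and lay far above all others, and abcg1 rose 2.49-fold (log2 fold change 1.32 ± 0.20, edgeR adjusted p = 0.00219). The copy abca1b of ABCA1, which loads cholesterol onto apolipoprotein A-I (chromosome 14, 6423973 to 6519076), had 1258, 1822 and 1726 in Tg(cmlc2:tfeb), against 1155, 954 and 849 in WT. The lowest transgenic library stood only slightly above the highest WT library, and abca1b rose with a log2 fold change of 0.70 ± 0.16 (edgeR adjusted p = 0.012). The other copy, abca1a, averaged 3930.2 ± 220.4 in Tg(cmlc2:tfeb) and 4481 ± 463 in WT (SD, n = 3 each), with a log2 fold change of -0.19 (edgeR adjusted p = 0.161).

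**Figure D2:**
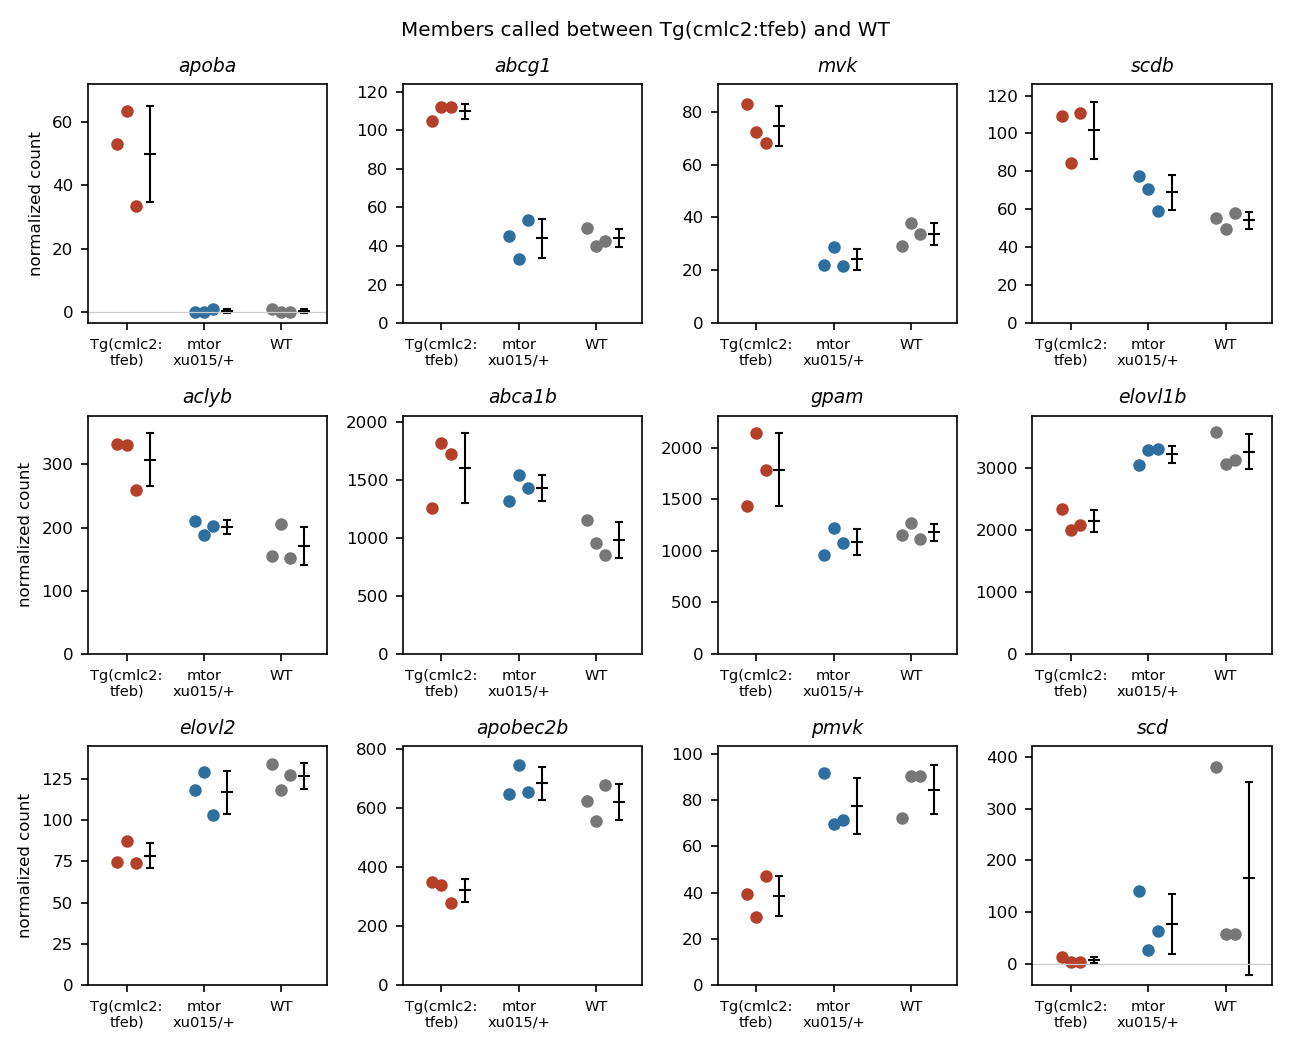
Normalized counts (vertical axes, each from 0) of the 12 genes called in Tg(cmlc2:tfeb) against WT; dots are libraries and bars the mean ± SD of 3 libraries for Tg(cmlc2:tfeb), mtor-labelled and WT. All 3 abcg1 dots of Tg(cmlc2:tfeb) lie at 105 to 112, above every other library, and the scd panel shows WT replicate 1 at 380.0 far above its group.

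None of the 7 genes named for the LDL receptor was called, beside 7.41% of all tested genes called higher and 7.49% lower. Their median log2 fold change was 0.05. The LDL receptor gene ldlra had 61.6, 51.4 and 66.1 normalized counts in Tg(cmlc2:tfeb), against 74.3, 49.4 and 86.1 in WT, with overlapping groups (log2 fold change -0.23 ± 0.30, edgeR adjusted p = 0.619). Its adaptors ldlrap1a and ldlrap1b had log2 fold changes of -0.26 and 0.01. The names ldlrad3, ldlrad4a and ldlrad4b belong to proteins with an LDL receptor type domain and not to lipoprotein receptors, and ldlrad4a, with the smallest p of the family, had a log2 fold change of 0.15 (edgeR adjusted p = 0.2).

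Fatty acid synthesis, desaturation and elongation held 14 genes, of which 2 rose (14.3%) and 3 fell (21.4%). Over all tested genes 7.41% were called higher and 7.49% lower. The median log2 fold change of the 14 genes was -0.17, with 4 above and 10 below 0. Its median size was 0.58, beside 0.28 over all tested genes. ATP citrate lyase, which supplies acetyl-CoA in the cytosol, is encoded by aclya and aclyb. The copy aclyb (chromosome 12, 13973058 to 14078070) had 333, 330.1 and 259 normalized counts in Tg(cmlc2:tfeb), against 155, 206 and 152 in WT. The groups lay apart, and aclyb rose with a log2 fold change of 0.85 ± 0.15 (edgeR adjusted p = 0.0042). The other copy, aclya, averaged 1278 ± 113 in Tg(cmlc2:tfeb) and 1226 ± 32.2 in WT (SD, n = 3 each, log2 fold change 0.06, edgeR adjusted p = 0.645). The carboxylase genes acaca and acacb and fatty acid synthase fasn, which build the chain, had log2 fold changes of -0.05, -0.02 and -0.28, none of which passed (edgeR adjusted p = 0.846, 0.925 and 0.351).

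Both stearoyl-CoA desaturase genes, whose enzymes introduce the first double bond, were called, in opposite directions. The copy scdb (chromosome 13, 30007554 to 30028103) had 109, 84.5 and 111 normalized counts in Tg(cmlc2:tfeb), against 55.5, 49.4 and 57.8 in WT, and rose with a log2 fold change of 0.90 ± 0.18 (edgeR adjusted p = 0.00827). The copy scd (chromosome 12, 48390715 to 48404672) had 13.7, 4.35 and 4.48 in Tg(cmlc2:tfeb), against 380.0, 58.6 and 57.8 in WT. Every transgenic library was below every other library, while WT replicate 1 was far above its own group. scd fell with a log2 fold change of -4.41 ± 1.003 (edgeR adjusted p = 0.0134). Without WT replicate 1 the change was -2.90 (edgeR adjusted p = 0.0314), and without Tg(cmlc2:tfeb) replicate 2 it did not pass (log2 fold change -4.11, edgeR adjusted p = 0.057).

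Some adipocyte markers were called lower, as scd was. Of 13 such markers 11 were in the table and 7 were tested. In Tg(cmlc2:tfeb) against WT 0 were called higher and 4 lower, beside 7.41% and 7.49% of all tested genes. The 4 were adipoqa, cidec, pparg and fabp11a, with log2 fold changes of -2.99, -2.66, -1.76 and -0.67. The other 3 did not pass, cfd with a log2 fold change of 0.59, lipeb with 0.10 and lipea with 0.09. cfd had 2003, 1421 and 904 normalized counts in Tg(cmlc2:tfeb), against 398, 1204 and 1288 in WT, and so was lowest among the WT libraries in replicate 1. The summed level of all 11 was 10928.2 to 11868.9 in Tg(cmlc2:tfeb), 12646.2 to 14853.4 in the mtor-labelled libraries and 14145.2 to 19230.9 in WT, with WT replicate 1 the highest. That sum is mostly fabp11a, at 16835 in WT replicate 1. Of the other lower markers, cidec and pparg were also highest there, at 143 and 222. adipoqa was not, with 158, 138 and 192 in the WT libraries. The markers plin1, adipoqb, lepa and lepb were at or near 0 in all libraries. The part of adipocyte RNA in the scd difference was not tested.

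**Figure D3:**
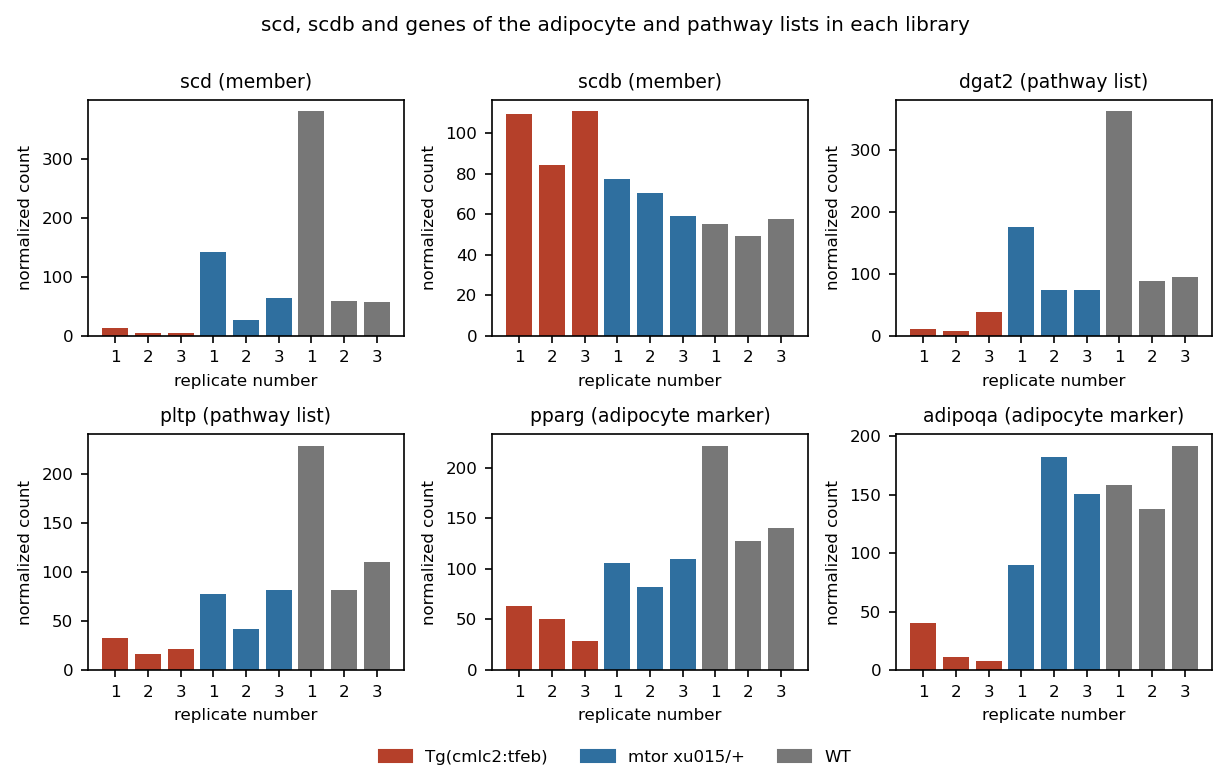
Bars give the normalized count (vertical axes from 0) of scd, scdb, dgat2, pltp, pparg and adipoqa in each of the 9 libraries, in the order Tg(cmlc2:tfeb), mtor-labelled, WT. scd was at 380.0, dgat2 at 363, pltp at 229 and pparg at 222 in WT replicate 1, above all other libraries. adipoqa was highest in WT replicate 3, at 192, and scdb was highest in Tg(cmlc2:tfeb).

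The elongase genes elovl1b, which acts on very long chains, and elovl2, which extends polyunsaturated chains, fell. elovl1b (chromosome 11, 13094179 to 13152524) had 2348, 2006 and 2081 normalized counts in Tg(cmlc2:tfeb), against 3586, 3066 and 3136 in WT, a log2 fold change of -0.60 ± 0.09 (edgeR adjusted p = 0.00204). The groups lay apart, but the change sat at the threshold, and it was under 1.5-fold without Tg(cmlc2:tfeb) replicate 2 (-0.56), Tg(cmlc2:tfeb) replicate 3 (-0.58) or WT replicate 1 (-0.53), still with adjusted p under 0.05. elovl2 (chromosome 24, 8861272 to 8887825) had 74.4, 87.1 and 74.0 in Tg(cmlc2:tfeb), against 134, 118 and 128 in WT, a log2 fold change of -0.69 ± 0.15 (edgeR adjusted p = 0.0102). The polyunsaturated fatty acid desaturase fads2 had 63.3, 115 and 39.2 in Tg(cmlc2:tfeb), against 37.7, 23.0 and 28.4 in WT. Its transgenic libraries were all higher but spread widely, and the log2 fold change of 1.29 ± 0.47 did not pass (edgeR adjusted p = 0.0813). The elongases elovl5 and elovl6, on polyunsaturated and on saturated chains, had log2 fold changes of -0.05 and -0.55 (edgeR adjusted p = 0.697 and 0.189).

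Among 8 glycerolipid genes only gpam, which encodes the acyltransferase of the first step at the mitochondrial membrane, was called (12.5%, beside 7.41% of all tested genes called higher). It lies on chromosome 12 from 31494830 to 31534090 and had 1436, 2145 and 1786 normalized counts in Tg(cmlc2:tfeb), against 1151, 1274 and 1112 in WT. The groups did not overlap, and gpam rose 1.52-fold (log2 fold change 0.60 ± 0.15, edgeR adjusted p = 0.0177). The call was lost without Tg(cmlc2:tfeb) replicate 2 (log2 fold change 0.45, edgeR adjusted p = 0.0592), WT replicate 1 (0.58, 0.0582) or WT replicate 3 (0.56, 0.0632). The next acyltransferase of the path, agpat2, averaged 779 ± 44.6 in Tg(cmlc2:tfeb) and 1068 ± 13.8 in WT (SD, n = 3 each), a log2 fold change of -0.46 (edgeR adjusted p = 0.00228) that stayed under 1.5-fold. The lipin genes lpin1 and lpin2, whose phosphatases make diacylglycerol, had log2 fold changes of 0.24 and -0.10 (edgeR adjusted p = 0.304 and 0.533).

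Of the apolipoproteins, 6 genes reached the minimum and only apoba was called (16.7%, beside 7.41% of all tested genes called higher). It encodes a form of apolipoprotein B, the scaffold of secreted lipoprotein particles, and lies on chromosome 17 from 30704068 to 30727966. It had 53.0, 63.6 and 33.6 normalized counts in Tg(cmlc2:tfeb), 0, 0 and 0.939 in the mtor-labelled libraries and 1.05, 0 and 0 in WT. Reads were thus nearly confined to the 3 transgenic libraries, and against a floor of 3 counts per library apoba was at least 15.2-fold higher than in WT and at least 16.8-fold higher than in the mtor-labelled libraries, with no test, since the minimum fixed its direction. The related gene apobb.1 had 27.4, 15.7 and 31.4 in Tg(cmlc2:tfeb), against 18.8, 29.9 and 19.6 in WT, with overlapping groups (edgeR adjusted p = 0.843). How reads of similar gene copies were assigned is not given in the sources used here.

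Hepatocyte markers were set beside apoba, since liver secretes most apolipoprotein B. Of 24 such markers 23 were in the table and 9 were tested. In Tg(cmlc2:tfeb) against WT 0 were called higher and 1 lower, beside 7.41% and 7.49% of all tested genes. The lower one was ahsg1, with a log2 fold change of -1.80 (edgeR adjusted p = 0.00434). The other tested markers did not pass and went in both directions. Log2 fold changes were 0.65 for fabp10a, 0.65 for hpxa, 0.22 for fetub and 0.19 for rbp4. They were -0.69 for ambp, -0.47 for vtg2, -0.11 for tfa and -0.10 for cp. Against the mtor-labelled libraries 2 were called higher, fabp10a and fetub, and 1 lower, beside 8.09% and 7.95% of all tested genes. The summed level of the 23 markers was 7835.2 to 9302.1 in Tg(cmlc2:tfeb) and 7138.2 to 8047.5 in WT, mostly from rbp4 and tfa. Several defining markers were low and untested. fga had 0, 4.35 and 10.1 normalized counts in Tg(cmlc2:tfeb), against 0 in each WT library. fgb had 1.71, 3.48 and 3.36 in Tg(cmlc2:tfeb), against 1.05, 0 and 0 in WT, and serpina1l 0.85, 1.74 and 4.48, against 0 in each WT library. These 3 were thus slightly higher in most Tg(cmlc2:tfeb) libraries, whereas ttr was at 0 there, against 2.09, 2.30 and 4.36 in WT. The fibrinogen gene fgg was also lower, with 0.85, 0.87 and 0 in Tg(cmlc2:tfeb), against 7.33, 1.15 and 3.27 in WT. The low markers thus went in both directions. The part of hepatocyte RNA in the apoba difference was not tested.

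None of the other apolipoprotein genes was called in either line against WT. Over all tested genes, 7.41% were called higher and 7.49% lower in Tg(cmlc2:tfeb) against WT. apoeb, a form of apolipoprotein E that macrophages also express, had 226, 44.4 and 53.8 normalized counts in Tg(cmlc2:tfeb), 181, 47.4 and 36.6 in the mtor-labelled libraries and 44.0, 50.5 and 44.7 in WT. Tg(cmlc2:tfeb) replicate 1 and mtor-labelled replicate 1 were several times above all other libraries, and neither difference from WT passed (log2 fold changes 1.23 and 0.92, edgeR adjusted p = 0.264 and 0.811). Without those replicates the changes were 0.08 and -0.14. These 2 libraries also had the highest sums of the 18 epidermal markers described below, 10016.9 and 22361.8. Single markers went both ways in Tg(cmlc2:tfeb) replicate 1, with krt5 at 1198 and tp63 at 288. The sum of 19 macrophage markers was 13822.9 and 15474 in the 2 libraries, and 12644.4 to 15625 in WT. The part of either cell type in the apoeb values was not tested. apoeb lies on chromosome 16 from 23960744 to 23963461, between 23913943 and 23994642, where 8 genes with apolipoprotein names lie together. Their summed level was 430.9, 215.1 and 229.8 in Tg(cmlc2:tfeb), 345.9, 228.5 and 218.8 in the mtor-labelled libraries and 227.2, 243.4 and 225.7 in WT. Most of that excess in both replicates 1 was apoeb, and apoc2, an activator of lipoprotein lipase and the other abundant gene there, was at 138 to 191 in all 9 libraries. apoa1b, which encodes apolipoprotein A-I of high-density particles, had a log2 fold change of 0.13 in Tg(cmlc2:tfeb) against WT (edgeR adjusted p = 0.628).

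Both apobec2 genes were lower in every Tg(cmlc2:tfeb) library than in every WT library. apobec2b, expressed in muscle (chromosome 23, 19213472 to 19221027), had 349, 339.6 and 277 normalized counts in Tg(cmlc2:tfeb), against 626, 558 and 679 in WT, and fell with a log2 fold change of -0.95 ± 0.12 (edgeR adjusted p = 0.000712). apobec2a averaged 4726 ± 445 in Tg(cmlc2:tfeb) and 7087 ± 520.4 in WT (SD, n = 3 each), a log2 fold change of -0.58 (edgeR adjusted p = 0.00254) just under 1.5-fold.

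Within gene pairs, the log2 ratio of one copy to the other in each library largely removes library scaling. A pseudocount of 1 was added to the normalized counts. At low counts, such as those of scd in Tg(cmlc2:tfeb), it shifts the ratio. In 3 of 7 pairs the transgenic ratios lay apart from the WT ratios, with differences of 0.79 for aclyb over aclya, 0.88 for abca1b over abca1a and -4.75 for scd over scdb. This gave the smallest two-sided p that an exact permutation test of 3 against 3 allows (0.1 each, 0.233 after adjustment over 7 pairs). These tests therefore cannot pass 0.05. In the other 4 pairs the ratios overlapped, with differences of -0.32 for elovl1b over elovl1a, -0.36 for apobec2b over apobec2a, 0.88 for apoeb over apoea and -0.043 for acaca over acacb (exact permutation p = 0.5, 0.2, 0.5 and 0.9).

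**Figure D4:**
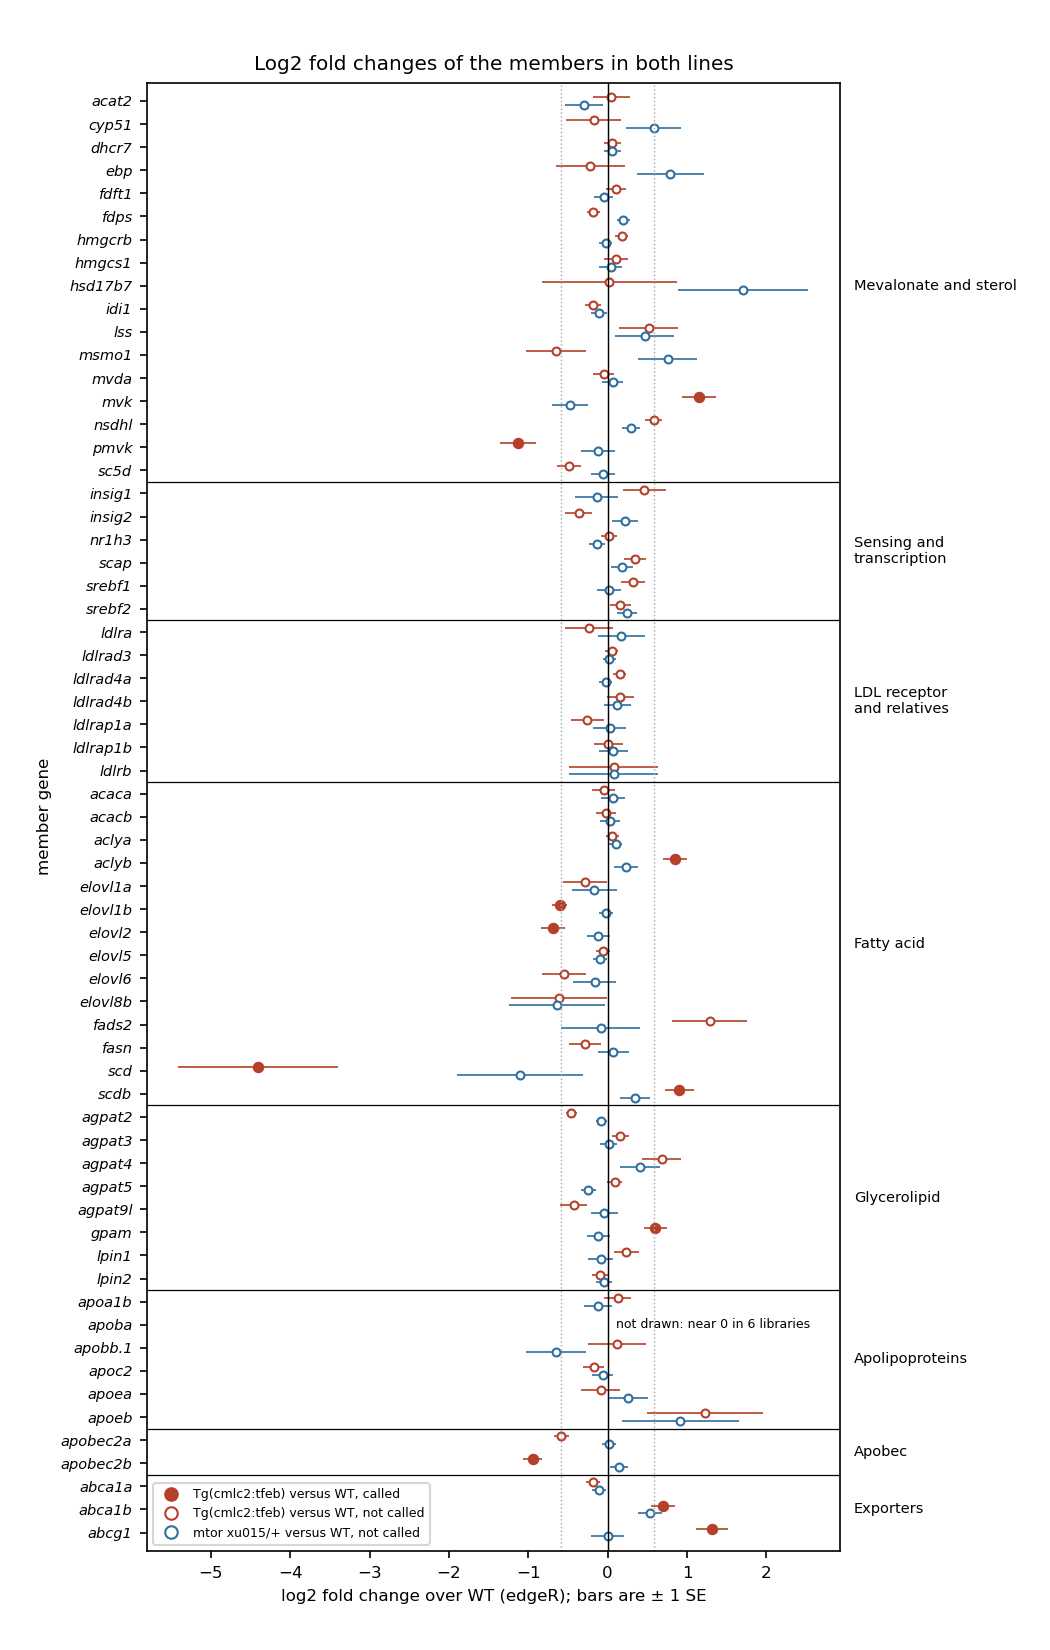
Log2 fold change (horizontal axis) ± SE over WT for the same 63 genes, Tg(cmlc2:tfeb) in red above mtor-labelled in blue; filled points were called, dotted lines mark 1.5-fold, and apoba is not drawn because its WT libraries are at or near 0. No blue point is filled, and the red points of abcg1 and mvk lie farthest right among the filled ones while scd at -4.41 lies farthest left.

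In the mtor-labelled libraries against WT, 0 of the 65 genes were called, beside 0.00943% of all tested genes called higher and 0.0141% called lower. Before adjustment, 4 genes (6.15%, beside 7.86% of all tested genes) had a p under 0.05, namely abca1b, nsdhl, agpat5 and fdps, named for their p. DESeq2 and limma-trend also called 0, each with 5 genes at that unadjusted level. Groups did not overlap for 8 of the 65 genes (12.3%), beside 13.2% of all tested genes. The median log2 fold change was 0.02, beside -0.00056 over all tested genes, and its median size was 0.12 beside 0.14.

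The smallest p belonged to abca1b, with 1319, 1538 and 1431 normalized counts in the mtor-labelled libraries, against 1155, 954 and 849 in WT. All 3 mtor-labelled libraries lay above all WT libraries, with a log2 fold change of 0.54 ± 0.16, which did not pass over all genes (edgeR adjusted p = 0.495). nsdhl had 128, 137 and 129.6 in the mtor-labelled libraries, against 109.9, 103 and 108 in WT (log2 fold change 0.30 ± 0.11, edgeR adjusted p = 0.572). fdps, farnesyl diphosphate synthase, had 1101, 1079 and 985 in the mtor-labelled libraries, against 941, 905 and 913 in WT (log2 fold change 0.20 ± 0.08, edgeR adjusted p = 0.59). The pair scdb and scd had log2 fold changes of 0.35 and -1.11 (edgeR adjusted p = 0.703 and 0.79), and abcg1 was level at 44.1 ± 10.1 in the mtor-labelled libraries and 44.0 ± 4.68 in WT (SD, n = 3 each). The log2 fold changes of srebf1, srebf2, ldlra and fasn were 0.02, 0.24, 0.17 and 0.07, none of which passed. apobb.1 was lower in every mtor-labelled library than in every WT library, with a log2 fold change of -0.65 (edgeR adjusted p = 0.729). That of apobec2b was 0.14 (edgeR adjusted p = 0.811).

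One mtor-labelled library stood apart in sterol genes. Replicate 1 held the highest of the 9 values for 9 of the 18 sterol synthesis genes, whereas 11% of all tested genes were highest there. msmo1, which encodes a methylsterol oxidase, had 491, 195 and 174 normalized counts in the mtor-labelled libraries, against 207, 163 and 136 in WT. cyp51, the lanosterol demethylase, had 434, 176 and 162, against 205, 169 and 141 in WT. The value of replicate 1 exceeded the others by more than their whole spread in both genes. hmgcra and sqlea, which are near 0 elsewhere, reached 50.8 and 55.3 in that library, and no other library had more than 8.36 of either.

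Over the 11 sterol genes after squalene the summed level was 1066.1, 1166.1 and 1103.9 in Tg(cmlc2:tfeb), 2214.5, 1262.5 and 1115.5 in the mtor-labelled libraries and 1151.5, 1186 and 1092.6 in WT. Outside replicate 1 of the mtor-labelled group the sums thus differed little. The same library was highest in epidermal markers. Of 18 such markers, written down after genes that stand apart there had been seen, 17 were tested and their sum was 10016.9, 6397.3 and 5332.5 in Tg(cmlc2:tfeb), 22361.8, 6891.2 and 8629 in the mtor-labelled libraries and 7442.8, 6457.2 and 6490.3 in WT. The keratin gene krt5 was at 5172 in that library, while the epidermal regulator tp63 and the cadherin gene cdh1 did not stand apart there. The part of epidermal RNA in these sterol values was not tested.

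**Figure D5:**
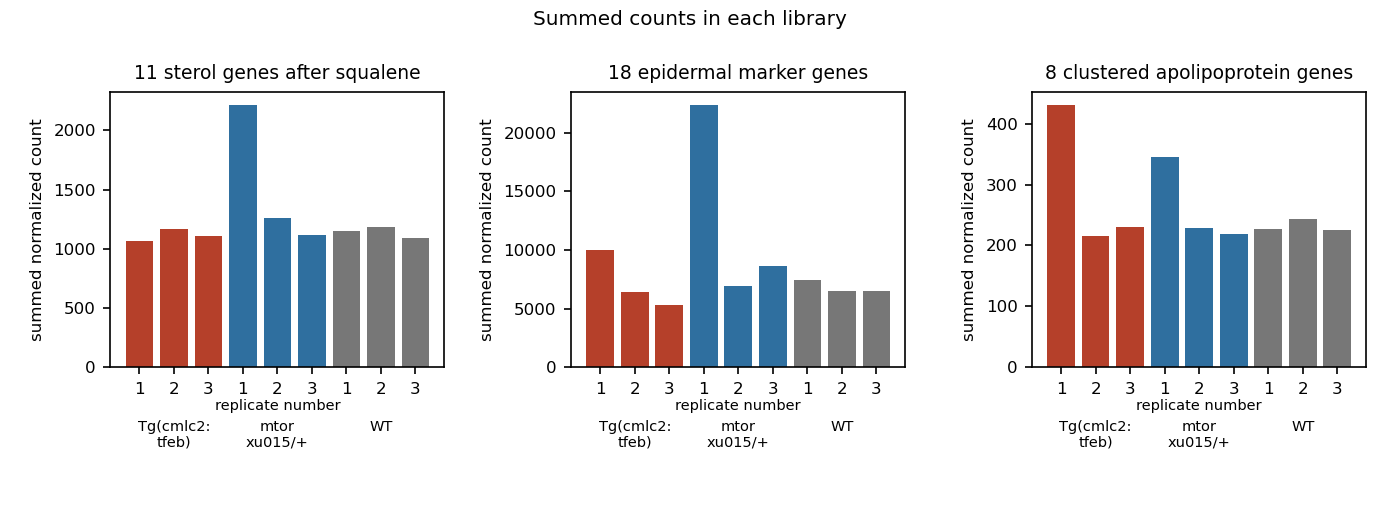
Bars give summed normalized counts (vertical axes from 0) per library, in the order Tg(cmlc2:tfeb), mtor-labelled, WT, of 11 sterol genes after squalene, 18 epidermal markers and 8 apolipoprotein genes of chromosome 16. Replicate 1 of the mtor-labelled group is highest in the first sum at 2214.5 and in the second at 22361.8, and Tg(cmlc2:tfeb) replicate 1 is highest in the third at 430.9.

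Directly between both lines, 11 of the 65 genes were called in Tg(cmlc2:tfeb) against the mtor-labelled libraries, 5 higher (7.69%) and 6 lower (9.23%), beside 8.09% and 7.95% of all tested genes. Without apoba, 10 of 64 were called, 4 higher (6.25%) and 6 lower (9.38%). Those that rose were apoba, mvk, abcg1, gpam and aclyb, and those that fell were scd, msmo1, apobec2b, pmvk, apobec2a and elovl1b. mvk had 82.9, 72.3 and 68.4 normalized counts in Tg(cmlc2:tfeb), against 22.1, 28.8 and 21.6 in the mtor-labelled libraries, a log2 fold change of 1.62 ± 0.22 (edgeR adjusted p = 0.00102). abcg1 rose by 1.32 ± 0.20 and gpam by 0.72 ± 0.15 on the log2 scale (edgeR adjusted p = 0.00191 and 0.00718). pmvk had 39.3, 29.6 and 47.1 in Tg(cmlc2:tfeb), each below the 91.7, 69.7 and 71.4 in the mtor-labelled libraries, and its log2 fold change was -1.01 ± 0.22 (edgeR adjusted p = 0.0108). Both apobec2 genes fell, with log2 fold changes of -1.09 and -0.60 (edgeR adjusted p = 0.000301 and 0.00191).

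abca1b did not differ beyond its spread here, with a log2 fold change of 0.16 ± 0.15 between Tg(cmlc2:tfeb) and the mtor-labelled libraries (edgeR adjusted p = 0.476), and neither did srebf2 (-0.08, edgeR adjusted p = 0.676). insig2 had a log2 fold change of -0.58 (edgeR adjusted p = 0.0295), just under 1.5-fold. Its adjusted p was under 0.05 in 1 of 6 fits with a library left out. msmo1 fell with a log2 fold change of -1.41 ± 0.38 (edgeR adjusted p = 0.0242), and the sterol-rich replicate 1 entered this value. Without that library it was -0.78 (edgeR adjusted p = 0.0368), and the call was lost without Tg(cmlc2:tfeb) replicate 1 or 2 (edgeR adjusted p = 0.0756 and 0.0739). scd fell by 3.30 ± 1.01 on the log2 scale (edgeR adjusted p = 0.0412), but its adjusted p was under 0.05 in 1 of 6 fits with a library left out, without mtor-labelled replicate 2, and its change ranged from -4.08 to -2.56 over these fits.

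The other calls lost when a library was left out lie near the thresholds. aclyb, with a log2 fold change of 0.62, was lost without Tg(cmlc2:tfeb) replicate 1 (0.57, under 1.5-fold), Tg(cmlc2:tfeb) replicate 2 (0.57) or mtor-labelled replicate 2 (0.58). gpam was lost without Tg(cmlc2:tfeb) replicate 2 (0.57). elovl1b, with -0.59, was lost without Tg(cmlc2:tfeb) replicate 2 (-0.54) or 3 (-0.57) and without mtor-labelled replicate 2 (-0.57) or 3 (-0.57). apobec2a was lost without Tg(cmlc2:tfeb) replicate 1 (-0.53) and without mtor-labelled replicate 2 (-0.58) or 3 (-0.58). The calls of abcg1, mvk, pmvk and apobec2b held in all 6 fits.

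Of 61 further genes of lipid handling, listed by name outside the choice above, 54 were in the table and 46 were tested. In Tg(cmlc2:tfeb) against WT 1 rose (2.17%) and 7 fell (15.2%), beside 7.41% and 7.49% of all tested genes. Both lpl and vldlr, which serve the uptake of lipoprotein triglyceride, fell. Lipoprotein lipase lpl had 2825, 2889 and 4820.3 in Tg(cmlc2:tfeb), against 8017, 8026 and 7585 in WT, and its log2 fold change was -1.17 ± 0.26 (edgeR adjusted p = 0.0121). Without Tg(cmlc2:tfeb) replicate 2 it was -1.04 and no longer called (edgeR adjusted p = 0.0509). The VLDL receptor gene vldlr had 1499.5, 1362 and 1340.4 in Tg(cmlc2:tfeb), against 2353, 2709.6 and 2612 in WT (log2 fold change -0.87 ± 0.08, edgeR adjusted p = 0.000228). Both were lower in every transgenic library than in every WT library.

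cyp27a1.4, named for a sterol 27-hydroxylase that makes oxysterols and bile acid precursors in mammals, had 85.5, 63.6 and 112 in Tg(cmlc2:tfeb), against 388, 390.4 and 346 in WT (log2 fold change -2.12 ± 0.21, edgeR adjusted p = 0.000286). The diacylglycerol acyltransferase gene dgat2 and the phospholipid transfer protein gene pltp had log2 fold changes of -3.32 and -2.57 (edgeR adjusted p = 0.0133 and 0.00415). dgat2 and pltp were highest in WT replicate 1, as was scd, with 363 and 229 there, against 88.4 and 96.0 for dgat2 and 81.5 and 110.1 for pltp in the other WT libraries. Without WT replicate 1 the changes were -2.33 and -2.02 (edgeR adjusted p = 0.0412 and 0.0107), and over all alternatives they were -4.25 to -2.05 for dgat2 and -2.89 to -2.02 for pltp. The dgat2 call was lost without Tg(cmlc2:tfeb) replicate 2 (-2.94, edgeR adjusted p = 0.0542). The LDL receptor ubiquitin ligase gene mylipa and the oxysterol binding protein gene osbpl2b fell by 0.64 and 0.63 on the log2 scale (edgeR adjusted p = 0.00143 and 0.0016). Both were under 1.5-fold with a library left out, mylipa without Tg(cmlc2:tfeb) replicate 2 (-0.58) or WT replicate 2 (-0.57) and osbpl2b without WT replicate 1 (-0.58). In the mtor-labelled libraries against WT, 0 of the 46 genes were called, beside 0.00943% of all tested genes called higher and 0.0141% lower. In Tg(cmlc2:tfeb) against the mtor-labelled libraries 1 rose (2.17%) and 5 fell (10.9%), beside 8.09% and 7.95% of all tested genes. cyp27a1.4, lpl and vldlr fell, with -2.42, -1.22 and -0.79 (edgeR adjusted p = 0.000136, 0.00897 and 0.000279). dgat2 and pltp fell with -2.56 and -1.50 (edgeR adjusted p = 0.0359 and 0.0391), and each was called in 2 of 6 fits with a library left out, over all alternatives with -3.49 to -1.74 for dgat2 and -1.82 to -1.29 for pltp.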

How the data were processed

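Ventricle RNA of Tg(cmlc2:tfeb), mtor xu015/+ and WT zebrafish was sequenced as 50 bp read pairs, with 3 libraries each, and groups were taken from the sample labels. The authors deposited expected counts (estimated counts per gene, in columns tagged scaledTPM) on GRCz11. The methods name TopHat and Cufflinks, whereas the submitters' processing notes name STAR 2.5.2b and Trimmomatic 0.36. The tool that wrote the table is not given in the sources used here, nor is whether counting used strand. Low values cluster at whole numbers (58.5% of those from 0.5 to 5.5 were no more than 0.1 away from one, where 20% would be if spread evenly) and so behave like reads. Library totals of 35440229 to 45273885 made counting error small for all but the lowest genes.

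Estimated counts were rounded and fitted in R 4.3.3 with edgeR 4.0.16 (filterByExpr, TMM, quasi-likelihood test over all 9 libraries, Benjamini-Hochberg over 21216 genes). A call needed an adjusted p under 0.05 and 1.5-fold, the thresholds of the study. Cuffdiff, the test of the study, needs alignments and was not used. Normalized counts are counts over the TMM-scaled library size, times the mean of these sizes. Folds against groups with at most 3 counts in each library are lower bounds. The scripts were tested on simulated data. No source says whether pools of a group share a clutch, so p-values measure the spread between these libraries.

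The genes and lists were chosen with earlier results of these data known. Genes set to be given by name were all called genes, the gene with the smallest p of each role, and hmgcs1, srebf1, srebf2, insig1, ldlra, fasn, scd, scdb, apoeb, abca1a and abcg1 in each comparison. Some of these values are not printed here. Others were named after their values were seen. Alternatives were DESeq2 1.42.0, limma-trend (limma 3.58.1), RLE and upper-quartile scaling, other filters, no fold threshold, only the 6 libraries compared, a replicate block, and each library left out. Leaving out replicate 1 of some or all groups together, the ratios of gene copies, the counts without apoba and the epidermal list were added after seeing the data. A few genes that enter the counts are not reported by name or drawn here. Sequences and a genome were not used here.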

Additional observations from a re-analysis of the deposited data

Results flagged for a closer look

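Among the 21 gene names under the minimum of 10 counts in 3 libraries, 3 stood in every library of one group above every WT library. Of all tested genes, 42% in Tg(cmlc2:tfeb) and 13.2% in the mtor-labelled libraries did not overlap WT, in either direction. The count of 3 is upward only, over both lines and among untested genes, so it is not a like measure and does not mark these genes as unusual. apoa2, which encodes an apolipoprotein of high-density particles, averaged 10.6 normalized counts in Tg(cmlc2:tfeb) (5.13, 16.5 and 10.1), against 0 in each WT library, which is at least 3.22-fold higher against a floor of 3 counts per library. The elongase gene elovl4a averaged 7.99 normalized counts in the mtor-labelled libraries (9.95, 6.50 and 7.51), against 6.28, 3.44 and 5.45 in WT. The lipid transporter gene abca12, named in skin disease and caught by the start of its name, averaged 15.2 normalized counts in the mtor-labelled libraries (29.8, 7.43 and 8.45), against 3.14, 4.59 and 1.09 in WT, with the highest value in replicate 1, the library with the most epidermal marker counts. In the other direction, elovl8a lay below every WT library in both lines. It had 0 in each Tg(cmlc2:tfeb) library and 0, 0 and 1.88 in the mtor-labelled libraries, against 2.09, 2.30 and 2.18 in WT. None of these genes was tested, and their counts are low.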

How the results depend on the processing

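Over all alternatives the number of the 65 genes called was 8 to 16 in Tg(cmlc2:tfeb) against WT (12 as reported), 0 in the mtor-labelled libraries against WT and 7 to 16 in Tg(cmlc2:tfeb) against the mtor-labelled libraries (11 as reported). With 1 library left out in turn the ranges were 10 to 15, 0, and 8 to 11. Leaving out mtor-labelled and Tg(cmlc2:tfeb) replicate 1 together, or all 3 libraries numbered 1, gave 7 between both lines in either case. With all 3 libraries numbered 1 left out, aclyb, elovl2, mvk and scdb were no longer called in Tg(cmlc2:tfeb) against WT, with fewer libraries in the fit. Over all tested genes, that comparison gave 3161 calls, 2348 to 2957 with 1 library left out and 2026 without the libraries numbered 1. The mtor-labelled libraries against WT gave 5 calls over all tested genes, 0 to 5 with 1 library left out, 71 with DESeq2, 9 with limma-trend, 9 without a filter, and 0 with only 6 libraries, with the replicate block, or with either set of replicates 1 left out. Between both lines it was 3404, 2688 to 3199 with 1 library left out, and 5157 without a fold threshold.

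Replicate numbers gave little sign of pairing, since the correlations of same-numbered deviations were -0.024 to 0.089. An effect that same-numbered libraries share in a small set of genes could go unseen in these correlations. With a replicate block 12, 0 and 12 of the 65 genes were called in the 3 comparisons in the order above, with gpam lost and apobec2a gained in the first and insig2 gained in the third. No scaling moved the median of all tested genes by more than 0.042 on the log2 scale.

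Among the genes followed by name over the alternatives, directions changed only for those near 0 or led by 1 library. None of them was called in the comparison where its direction changed. With 1 library left out, the log2 fold change in Tg(cmlc2:tfeb) against WT was -0.037 to 0.22 for hmgcs1. In the mtor-labelled libraries against WT it was -0.17 to 0.17 for abcg1, -0.070 to 0.15 for hmgcs1, -0.10 to 0.18 for srebf1, -0.44 to 0.10 for insig1, -0.069 to 0.24 for fasn, -0.14 to 1.29 for apoeb, -0.044 to 0.24 for ldlrad4b, -0.17 to 0.39 for ldlra and -1.85 to 0.41 for scd. Between both lines it was -0.83 to 1.37 for apoeb, -0.077 to 0.17 for hmgcs1 and -0.17 to 0.032 for srebf2. In the mtor-labelled libraries against WT, abcg1 was also -0.018 with limma-trend, -0.0078 with upper-quartile scaling, -0.0013 with only 6 libraries and -0.0072 with the replicate block. Without mtor-labelled and Tg(cmlc2:tfeb) replicate 1 that difference was -0.014 for abcg1, -0.068 for hmgcs1, -0.032 for srebf1, 0.10 for insig1, -0.0059 for fasn and -0.14 for apoeb. Without all libraries numbered 1 it was -0.046 for srebf1, 0.0063 for insig1 and -0.18 for apoeb. The causes of these differences, and of the differing counts of calls, were not tested. A size of difference that 3 libraries a group could detect was not computed.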
